A study of Rattus norvegicus with 14 samples.

Results

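Skin arrays with high hair-keratin signal were set against skin arrays with low hair-keratin signal, across all measured genes other than keratins. The 2 sides hold 10 of the 14 arrays of the series, 5 hair-keratin-high and 5 hair-keratin-low. The sides were chosen from the arrays' own levels of hair follicle and hair keratin genes. Each array is the skin of 1 male CD hairless rat, either exposed to 94 GHz waves for 3 h per day on 3 days per week over 5.5 months (6 animals) or sham exposed (8 animals). Genotype and age of the animals are not given. The rats were housed in pairs, per the labels, and cage-mates are not identified. The high side was exposed animals 3, 4 and 6 and sham animals 2 and 3. The low side was exposed animal 1 and sham animals 1, 5, 6 and 7. Animal numbers only name the arrays. The other 4 arrays (exposed animals 2 and 5, sham animals 4 and 8) are called middle.

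Hair is built in the follicle bulb, where matrix cells divide and then commit to concentric layers. The outer layers become the inner root sheath, a mould that hardens early and is later shed, and the central layers become the cortex, cuticle and medulla of the hair shaft. Each layer makes its own pairs of type I and type II keratins, shaft cells add keratin-associated proteins that cross-link the filaments, and deiminases and transglutaminases harden the product. Follicles cycle between growth, regression and rest, and these genes are expressed mainly in growing follicles. In a piece of whole skin, fewer cells of a type and less RNA per cell cannot be told apart.

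All levels are log2 signals relative to the 75th percentile of the same array, so 0 is that percentile and a difference of 1 is 2-fold. The hair-keratin score of an array is the mean, over 17 measured inner root sheath and hair shaft keratins, of the level minus that gene's mean over the 14 arrays. In the high side the score was 0.74 in exposed animal 4, 1.09 in exposed animal 3, 1.17 in sham animal 3, 1.51 in sham animal 2 and 1.94 in exposed animal 6. In the low side it was -1.79 in sham animal 1, -1.55 in exposed animal 1, -1.28 in sham animal 6, -1.20 in sham animal 5 and -0.79 in sham animal 7. The 5 highest and the 5 lowest scores belonged to the arrays named by the choice. The nearest arrays outside were sham animal 8 (0.64), just under exposed animal 4, and sham animal 4 (-0.62), just above sham animal 7. Both edges are therefore narrow, and the middle arrays form a continuum between the sides.

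Of 46 defining markers of skin, follicle and neighbouring cell types, Krt71, Krt10, Plin1, Dct, Pmel, Scd1 and Mylpf had no matched probe, and Lep, Myh2 and Myh4 were not kept. The basal keratins Krt5 and Krt14, the spinous-layer keratin Krt1 and the fibroblast genes Col1a1, Col3a1, Dcn and Lum were well above background on 14 of 14 arrays. The follicle markers Krt25, Krt27, Krt31 and Krt85 were also well above background on 14 of 14 arrays, low side included. Sham animal 6, in the low side, was dim: its 75th percentile was 804.5 scanner units, and those of the other arrays ran from 1075 to 1967. Sham animals 5 and 7, in the low side, and exposed animal 2, a middle array, had the highest skeletal muscle scores.

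Treatment labels were not used to choose the sides. The high side held 3 exposed and 2 sham animals and the low side 1 exposed and 4 sham animals, a split that Fisher's exact test did not separate (two-sided p = 0.524). With so few animals the test could hardly separate such a split, so it does not show that treatment was balanced. The 14 arrays lay on 4 slides. Slide 1 held 1 high and 1 low array, slide 3 held 3 high and 1 low, slide 4 held 1 high and 2 low, and slide 2 held no high array, so the difference could be taken within slides 1, 3 and 4.

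The keratins themselves show what separates the sides. Their differences are description only, because hair keratins were among the genes that chose the arrays. Krt25 and Krt27 are type I keratins of the inner root sheath. Krt25 lay at 5.93 in exposed animal 3, 6.56 in exposed animal 4, 6.82 in exposed animal 6, 6.17 in sham animal 2 and 6.31 in sham animal 3. In the low arrays Krt25 lay at 3.95 in exposed animal 1, 3.35 in sham animal 1, 4.29 in sham animal 5, 4.33 in sham animal 6 and 4.62 in sham animal 7. The lowest high array was thus above the highest low array, and the side means differed by 2.25, or 4.75-fold. Krt27 values were 4.60 (exposed animal 3), 5.03, 5.24, 5.59 and 5.94 (exposed animal 6) in the high arrays and 1.88 (sham animal 1), 2.72, 3.12, 3.32 and 3.54 (sham animal 7) in the low arrays. Krt85, a type II keratin of the shaft cortex and cuticle, had the widest gap of all measured keratins at 3.78 (13.8-fold). It lay at 1.92 in exposed animal 3, -0.71 in exposed animal 4, 1.13 in exposed animal 6, 1.54 in sham animal 2 and 1.35 in sham animal 3. In the low arrays Krt85 lay at -3.41 in exposed animal 1, -3.44 in sham animal 1, -2.45 in sham animal 5, -2.24 in sham animal 6 and -2.15 in sham animal 7. Krt31 values were -1.00 (exposed animal 4), 0.52, 1.02, 1.08 and 1.52 (exposed animal 3) in the high arrays and -2.44 (exposed animal 1), -1.81, -1.80, -1.68 and -1.59 (sham animal 7) in the low arrays.

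Of 8 inner root sheath keratins listed, 6 were measured, and 5 of the 6 were separated, meaning that all 5 high arrays lay beyond all 5 low arrays and the side means were at least 2-fold apart (Krt25, Krt26, Krt27, Krt28 and Krt73). Krt72 differed by 2.67 with overlap, because exposed animal 3 lay at -3.72 and sham animal 7 at -3.19. The median over the 6 was 2.39. Of 15 hair shaft keratins listed, 11 were measured and 5 were separated in the same way, with a median of 2.97: Krt85, Krt35 (3.21), Krt33a (3.30), Krt31 (2.50) and Krt39, which was not well above background on any low array and was at least 4.19-fold higher in the high side. The cortex keratins Krt34 (3.40) and Krt33b (3.27) overlapped through sham animal 6. Krt34 was 1.05 there, against 0.88 in exposed animal 4. Without sham animal 6 the shaft count was 8 of 11, and without exposed animal 4 it was 9 of 11.

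Keratins of other follicle parts went different ways. Krt75, made in the companion layer, differed by 2.15 without overlap. Krt17, a keratin of the outer root sheath, was 5.76 ± 0.13 against 5.43 ± 0.55 (SD, n = 5 each) and overlapped. Across the 40 measured keratins, 12 were separated upward and 0 downward. They include Krt87, which was on none of these keratin lists and not in the score, and differed by 3.19. Members of the Krt33 and keratin-associated families are close copies, and cross-hybridisation between their probes was not checked.

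**Figure D1:**
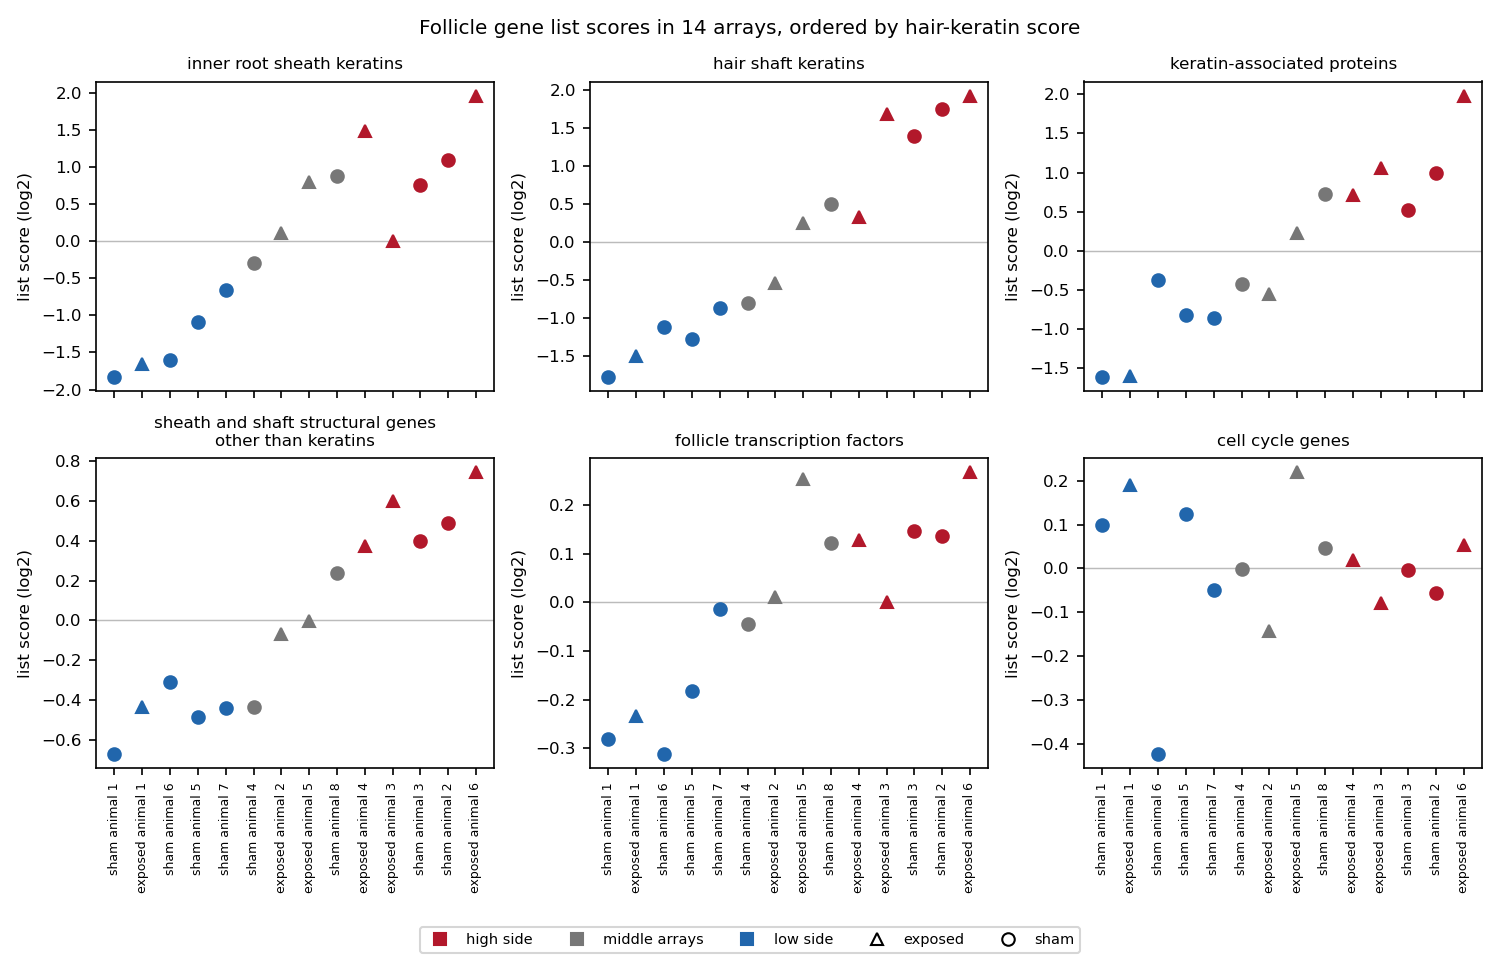
Scores of 6 follicle gene lists in each array (vertical axis, log2; mean over members of the level minus the gene's mean over 14 arrays), with arrays in order of the hair-keratin score along the horizontal axis. Red, grey and blue points are high, middle and low arrays, triangles are exposed and circles sham. The keratin, keratin-associated and structural scores climb from left to right, and exposed animal 3 drops out of line for the inner root sheath keratins (0.0054) and exposed animal 4 for the shaft keratins (0.33).

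Promoters of the separated keratins are shown because these genes differed together. RefSeq promoters (assembly GRCr8, 300 bases around each start) were matched by gene identifier for 11 of the 12 separated keratins. The window printed is 60 bases before to 20 after the start, 5′ to 3′ on the gene's strand, in lower case, with each TATAAA in capitals.
Krt25 (chr10:84771178-84771257, minus strand): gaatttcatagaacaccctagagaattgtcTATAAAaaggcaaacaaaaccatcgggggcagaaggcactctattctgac
Krt28 (chr10:84824838-84824917, minus strand): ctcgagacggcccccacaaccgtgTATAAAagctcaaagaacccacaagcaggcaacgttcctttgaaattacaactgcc
Krt31 (chr10:85483281-85483360, minus strand): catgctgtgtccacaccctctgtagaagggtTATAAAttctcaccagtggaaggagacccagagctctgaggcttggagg
Krt73 (chr7:134815009-134815088, minus strand): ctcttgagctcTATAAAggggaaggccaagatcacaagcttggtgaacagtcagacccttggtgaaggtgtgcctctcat
Krt85 (chr7:134515767-134515846, minus strand): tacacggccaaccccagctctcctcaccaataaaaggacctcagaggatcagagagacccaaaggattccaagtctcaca
TATAAA began 30 bases before the start in Krt25, 36 in Krt28, 29 in Krt31 and 49 in Krt73, and the Krt85 window holds no exact match. On the gene's strand within 50 bases before the start, TATAAA was present in 4 of the 11 keratin promoters (36.4%) and in 2.46% of 27457 promoters. For CTTTGAA, the core bound by LEF1 and its TCF relatives, searched on both strands over 300 bases, the figures were 4 of 11 (36.4%) and 5.31%. For the other LEF1 and TCF core, CTTTGTT, they were 0 of 11 and 5.82%, and for the AP-1 site TGACTCA 0 of 11 and 4.53%. These are letter matches in a fixed window, and binding was not measured. The shares among keratins that were not separated were not taken, so the contrasts may hold for keratin genes in general.

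Among 18571 genes other than keratins, 69 were higher in every high array than in every low array with side means at least 2-fold apart, which is 0.372% of these genes, and 11 were lower in the same sense (0.0592%). With normexp background correction the counts were 39 higher and 1 lower, and 38 of the 39 were among the 69. Without the dim sham animal 6 they were 105 and 15, and without the muscle-rich sham animals 5 and 7 they were 95 and 108. Without the fold limit, 127 did not overlap upward (0.684%) and 156 downward (0.84%). These counts use the same arrays that were chosen by hair follicle and hair keratin expression, so they carry no test. The follicle genes used for that choice were not available as a list. Follicle genes other than keratins may therefore have been part of the choice, and their separation is not independent of it. The 69 had a median difference of 2.12, from 1.01 to 3.62, and 39 were at least 4-fold higher. In all 69 the mean of the middle arrays fell between the side means. This largely follows from the choice of genes with a wide gap and of middle arrays by score, so it is no check. A symbol could be matched for 41 of the 69. The other 28, known only by probe or transcript identifiers, differed by 1.01 to 3.62. Keratins were left out by symbol, so these 28 may include keratin probes, and several may stand for the same gene.

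Some of the named genes were on a list of structural genes of sheath and shaft. The list was chosen with earlier results of these data known, so its counts are description only. Of 36 listed structural genes other than keratins, 27 were measured and 10 were separated upward, with 0 downward. Over all genes other than keratins the shares were 0.372% upward and 0.0592% downward. The count separated upward was 12 without exposed animal 4, 11 without exposed animal 1 and 11 without sham animal 6. The list median was 0.49, beside -0.045 over all 18611 genes. Padi3, the deiminase that turns arginine into citrulline in trichohyalin and S100A3, was 2.33 ± 0.24 against -0.16 ± 0.62 (SD, n = 5 each). Padi3 values were 2.07 (exposed animal 3), 2.20, 2.23, 2.46 and 2.67 (exposed animal 6) in the high arrays and -1.18 (sham animal 1), -0.25, 0.041, 0.18 and 0.40 (sham animal 6) in the low arrays. The gap between the sides, from 0.40 to 2.07, was wide compared with the spread in the high side. Padi1, a related deiminase, differed by 1.72 without overlap. Padi4 differed by 0.70, short of 2-fold.

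S100a3, a calcium-binding protein of the hair cuticle and a substrate of Padi3, was 2.76 ± 0.52 against 0.25 ± 0.60 (SD, n = 5 each), 5.68-fold higher. S100a3 values were 2.20 (sham animal 3), 2.25, 2.83, 3.12 and 3.38 (exposed animal 6) in the high arrays and -0.56 (sham animal 1), 0.078, 0.14, 0.51 and 1.09 (exposed animal 1) in the low arrays. Vsig8, an immunoglobulin-domain protein of the shaft, differed by 2.29. Vsig8 values were 3.36 (sham animal 3), 3.54, 3.89, 4.13 and 4.52 (exposed animal 3) in the high arrays and 0.68 (sham animal 1), 1.08, 1.66, 1.81 and 2.74 (exposed animal 1) in the low arrays. Exposed animal 1 was the highest low array for both S100a3 and Vsig8, although its keratin score was the lowest but one. Dsg4, the desmosomal cadherin that holds shaft cells together, was not well above background on any low array and was at least 3.29-fold higher in the high side.

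Gprc5d, an orphan receptor of hard-keratinising cells, had the largest difference in the structural list at 2.98 (7.9-fold). It lay at 1.35 in exposed animal 3, -1.40 in exposed animal 4, 0.53 in exposed animal 6, 0.30 in sham animal 2 and 0.39 in sham animal 3. In the low arrays Gprc5d lay at -3.37 in exposed animal 1, -3.58 in sham animal 1, -2.51 in sham animal 5, -1.52 in sham animal 6 and -2.75 in sham animal 7. Exposed animal 4 and sham animal 6 were separated by only a small step, while the other high arrays lay well above. Its relative Gprc5a differed by 2.34. Gprc5a values were -4.26 (exposed animal 3), -3.21, -3.08, -3.00 and -2.29 (exposed animal 6) in the high arrays and -6.16 (sham animal 1), -6.02, -5.79, -5.12 and -4.41 (sham animal 7) in the low arrays. In Gprc5a the lowest high array was exposed animal 3, not exposed animal 4. Ly6g6d (2.53), Psors1c2 (1.89), the calpain Capn8 (1.67) and Pinlyp (1.15) completed the separated structural genes.

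Other listed members did not separate. Mt4, a metallothionein of stratified epithelia, differed by 2.32 with overlap. The transglutaminases Tgm1 and Tgm3 differed by -0.021 and -0.14, Crym by 0.15 and the calcium-binding S100a4 by -0.33. Among these hardening enzymes, the deiminase genes Padi3 and Padi1 were thus separated, and Padi4, Tgm1 and Tgm3 were not.

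Keratin-associated proteins form the matrix between shaft filaments, and 15 were measured. All 15 differed upward, with a median of 2.12, beside 7096 of all 18611 genes above 0. Only Krtap19-5 (2.87), Krtap1-5 (2.27) and Krtap5-8 (2.12) were free of overlap. Over all genes other than keratins, 0.684% did not overlap upward and 0.372% were separated upward. Krtap5-8 values were 3.21 (sham animal 3), 3.87, 4.24, 4.66 and 4.86 (exposed animal 4) in the high arrays and 0.86 (sham animal 1), 1.88, 1.94, 2.67 and 2.89 (exposed animal 1) in the low arrays. Krtap1-5 values were 2.69 (exposed animal 4), 3.04, 3.25, 3.70 and 4.13 (exposed animal 3) in the high arrays and 0.19 (sham animal 1), 0.85, 0.86, 1.05 and 2.49 (sham animal 6) in the low arrays. The lowest high array lay just above sham animal 6 in Krtap1-5, and just above exposed animal 1 in Krtap5-8.

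The widest differences in the family overlapped. Krtap14 differed by 4.12, Krtap15-1 by 4.07, Krtap13-2 by 3.85 and Krtap7-1 by 3.02. Krtap14 values were -3.23 (exposed animal 4), -0.69, 0.15, 0.32 and 1.83 (exposed animal 3) in the high arrays and -6.30 (exposed animal 1), -4.96, -4.84, -4.04 and -2.09 (sham animal 6) in the low arrays. Exposed animal 4 sat among the low arrays, and the dim sham animal 6 was the highest low array. The number of separated members was 7 of 15 without exposed animal 4, 7 without sham animal 6 and 3 without any other single array of either side.

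**Figure D2:**
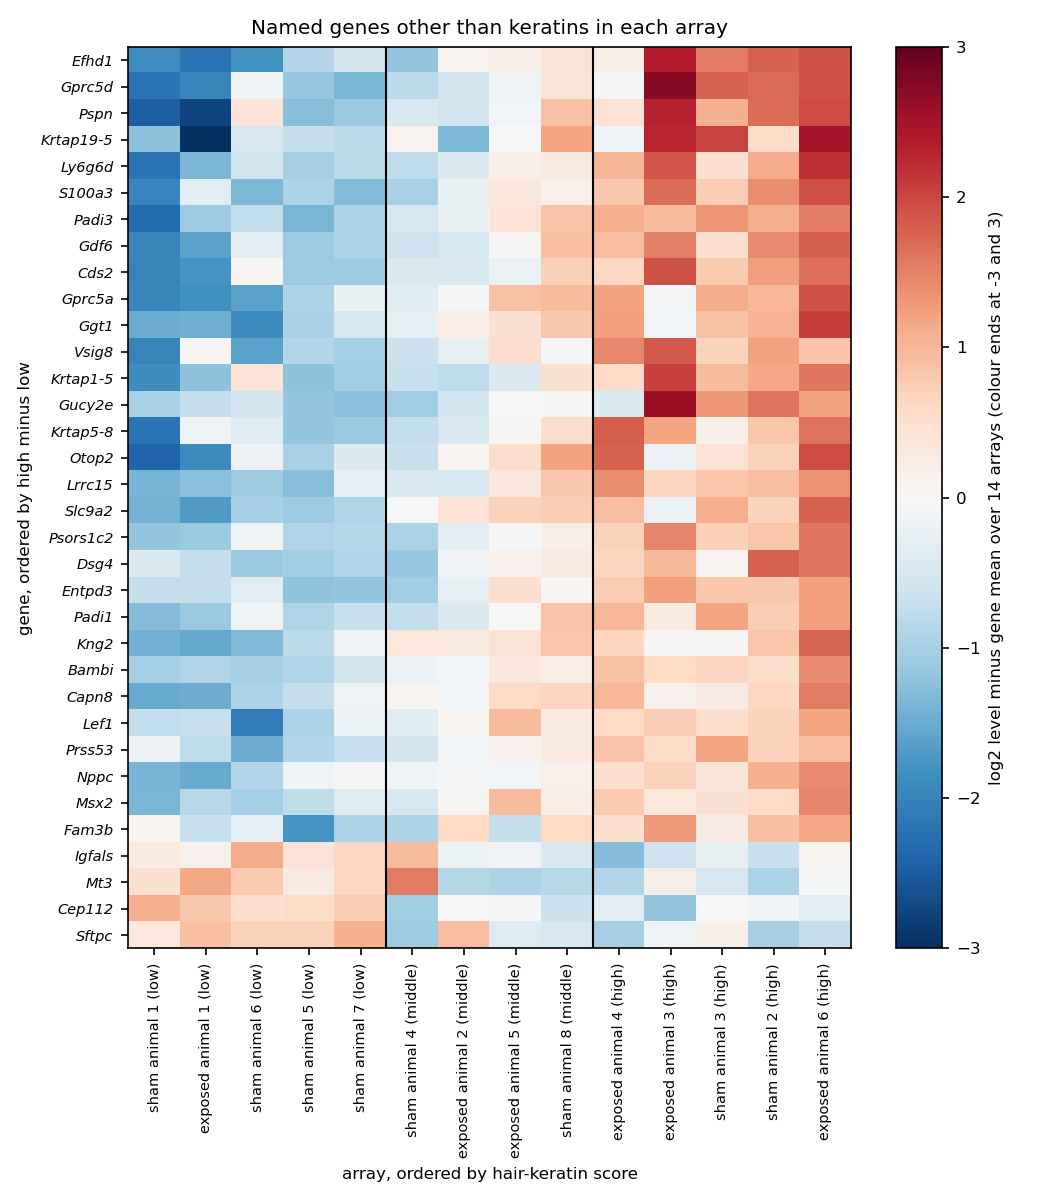
Levels of the 30 named genes higher in the high side and the 4 named genes lower in it (rows, ordered by difference) in each of 14 arrays (columns, ordered by hair-keratin score; the vertical lines bound the middle arrays). Colour is the log2 level minus the gene's mean over the 14 arrays, with colours ending at -3 and 3. Rows such as Gucy2e and Gprc5d are pale in exposed animal 4 and dark in exposed animal 3, and rows such as Otop2 and Slc9a2 show the opposite.

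Transcription factors of the matrix and its descendants formed a smaller group. Of 38 listed, 28 were measured and 3 were separated upward: Lef1, Msx2 and Msx1. Over all genes other than keratins the shares were 0.372% upward and 0.0592% downward. The median of the list was 0.13. Lef1 is the nuclear partner of beta-catenin that marks matrix and shaft precursors. Lef1 values were -3.11 (sham animal 3), -3.04, -2.95, -2.89 and -2.43 (exposed animal 6) in the high arrays and -5.71 (sham animal 6), -4.56, -4.36, -4.31 and -3.82 (sham animal 7) in the low arrays. Its side means differed by 1.67, and no array of the low side reached the lowest high array. Msx2, a homeobox factor needed for shaft differentiation, differed by 1.59. Msx2 values were -1.58 (exposed animal 3), -1.42, -1.32, -1.10 and -0.41 (exposed animal 6) in the high arrays and -3.25 (sham animal 1), -2.90, -2.73, -2.66 and -2.25 (sham animal 7) in the low arrays. Msx1 differed by 1.15. Its lowest high array, exposed animal 3 at -3.39, was next to its highest low array, sham animal 7 at -3.43. Without sham animal 6 the count was 2 of 28, because the Msx1 side means were then under 2-fold apart.

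Dlx1 had the largest difference of the list, 2.70, with overlap: sham animal 7 lay at -5.37 and exposed animal 3 at -5.57. Tbx1 (0.59) did not overlap but was under 2-fold. Foxn1, the factor mutated in nude animals, differed by 0.42, Dlx3 by 0.54 and Lhx2 by 0.77, and all 3 overlapped. Foxe1 (-0.28), Gata3 (0.15), Hr, the hairless corepressor (0.19), and Vdr, the vitamin D receptor (-0.030), lay close to the median of all genes.

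The signalling ligands and receptors that order the follicle differed little. Of 64 listed, 45 were measured and 0 were separated in either direction, with a median of 0.033. Over all genes other than keratins, 0.372% were separated upward and 0.0592% downward, so 0 of 45 says little about these genes. Wnt11, a Wnt ligand, differed by 0.66, the hedgehog targets Gli1 and Ptch1 by 0.52 and 0.43, and the ligands Bmp2 and Bmp4 by 0.52 and 0.40. Bmp2 alone of the 45 had no overlap between the sides, beside 0.684% upward and 0.84% downward of all genes other than keratins. Bmp2 values were -0.87 (sham animal 2), -0.81, -0.57, -0.57 and -0.34 (sham animal 3) in the high arrays and -1.38 (exposed animal 1), -1.34, -1.08, -1.07 and -0.87 (sham animal 7) in the low arrays. Its sides were apart only by the step between sham animal 7 and sham animal 2.

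Several genes outside that list but with a signalling role were separated. Gdf6, a ligand of the bone morphogenetic protein family, differed by 2.41. Gdf6 values were -1.23 (sham animal 3), -0.80, -0.30, -0.20 and 0.074 (exposed animal 6) in the high arrays and -3.69 (sham animal 1), -3.32, -2.80, -2.66 and -2.03 (sham animal 6) in the low arrays. Bambi, a decoy receptor that dampens signalling by that family, was 0.49 ± 0.37 against -1.20 ± 0.19 (SD, n = 5 each). Bambi values were 0.20 (sham animal 2), 0.27, 0.32, 0.56 and 1.10 (exposed animal 6) in the high arrays and -1.35 (sham animal 1), -1.32, -1.23, -1.23 and -0.88 (sham animal 7) in the low arrays. In Bambi the sides stood apart by more than 2-fold at their nearest arrays. Pspn, a ligand of the GDNF family, differed by 2.94, and its nearest arrays were sham animal 6 (-0.41) and exposed animal 4 (-0.37). Nppc, the precursor of C-type natriuretic peptide, differed by 1.61, and Gucy2e, a membrane guanylate cyclase, by 2.20. Gucy2e values were -2.07 (exposed animal 4), -0.44, -0.33, -0.034 and 0.92 (exposed animal 3) in the high arrays and -2.91 (sham animal 7), -2.82, -2.64, -2.37 and -2.22 (sham animal 6) in the low arrays.

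The remaining named genes spread over transport, metabolism and secretion. Efhd1, a calcium-binding protein of mitochondria, differed by 3.01, with 1 of 5 low arrays well above background, so its low-side mean rests on values near background. Cds2, which makes CDP-diacylglycerol, differed by 2.41. Ggt1, an enzyme of glutathione breakdown, differed by 2.31, and the ectonucleotidase Entpd3 by 1.79. Otop2, a proton channel, differed by 2.10 and Slc9a2, a sodium and proton exchanger, by 2.07, the latter also with 1 of 5 low arrays well above background. Lrrc15 values were -0.55 (exposed animal 3), -0.38, -0.28, 0.15 and 0.18 (exposed animal 4) in the high arrays and -2.60 (sham animal 1), -2.49, -2.46, -2.27 and -1.51 (sham animal 7) in the low arrays. Lrrc15, a leucine-rich repeat membrane protein, thus differed by 2.09 without overlap. The step between its nearest arrays, sham animal 7 and exposed animal 3, was smaller than the spread of the low side. Kng2, a kininogen (1.71), the serine protease Prss53 (1.64) and Fam3b, a secreted protein that was at least 2.49-fold higher and not well above background on any low array, complete the 30.

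Of the 41 genes with a symbol, 11 lay below these 30 in size, from 1.01 to 1.38, among them the efflux pump Abcg2 (1.38), the ephrin receptor Ephb1 (1.30), the phosphatase Dusp2 (1.28), the endothelin receptor Ednrb (1.27) and Msx1. Abcg2, Ephb1 and Dusp2 were picked after their values were seen.

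Promoters of the 41 named genes other than keratins could be matched for 36. TATAAA within 50 bases before the start on the gene's strand was found in 3 of the 36 (8.33%), beside 2.46% of all 27457 promoters. Krtap1-5, a shaft matrix gene, and Nppc, a secreted peptide, hold it and are shown in the same format as the keratins; Gprc5d and Padi3, among the strongest members, hold none in this window.
Krtap1-5 (chr10:85039837-85039916, minus strand): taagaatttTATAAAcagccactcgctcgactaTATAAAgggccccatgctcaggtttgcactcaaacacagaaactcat
Nppc (chr9:94772167-94772246, minus strand): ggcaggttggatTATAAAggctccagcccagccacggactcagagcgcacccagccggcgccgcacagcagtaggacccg
Gprc5d (chr4:169686946-169687025, minus strand): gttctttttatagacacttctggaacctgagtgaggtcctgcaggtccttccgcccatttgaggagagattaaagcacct
Padi3 (chr5:158400174-158400253, minus strand): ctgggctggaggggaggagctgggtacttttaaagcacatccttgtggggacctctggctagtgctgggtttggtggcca
CTTTGAA was present in 2 of 36 (5.56%), beside 5.31% of all promoters, CTTTGTT in 2 of 36 (5.56%), beside 5.82%, and TGACTCA in 3 of 36 (8.33%), beside 4.53%. The shares of these 3 motifs rest on 2 or 3 promoters each.

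The 5 high arrays were not alike in their sheath and shaft keratins. Exposed animal 4 had an inner root sheath score of 1.49 and a shaft score of 0.33, and exposed animal 3 had a sheath score of 0.0054 and a shaft score of 1.68. Shaft minus sheath was 1.67 in exposed animal 3, 0.65 in sham animal 2, 0.63 in sham animal 3, -0.039 in exposed animal 6 and -1.16 in exposed animal 4. In the low side it ran from -0.21 in sham animal 7 to 0.49 in sham animal 6, and in the middle arrays from -0.65 to -0.38. Exposed animals 3 and 4, the arrays at either extreme of all 14, were both on slide 3.

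Of the 69 separated genes other than keratins, 18 were at least 2-fold higher in exposed animal 3 than in exposed animal 4, 7 were at least 2-fold lower and 44 were within 2-fold. Over all 18571 genes other than keratins, 2.08% were at least 2-fold higher in exposed animal 3 and 3.44% at least 2-fold lower. Gucy2e, Gprc5d, Krtap19-5, Efhd1 and Pspn lay higher in exposed animal 3, and Otop2, Ggt1, Gprc5a and Dusp2 lay higher in exposed animal 4. Gucy2e was 0.92 in exposed animal 3 and -2.07 in exposed animal 4, and Otop2 was -1.96 and -0.0073. Among keratins, Krt26 was -4.40 and -2.03 in the same order, and Krt40 and Krt82, late shaft keratins of the cuticle, were -6.15 and -1.57, and -7.10 and -3.74. Other shaft keratins were higher in exposed animal 3, among them Krt85, Krt31, Krt39 and Krt35, and the members named here were picked after their values were seen. Each pattern rests on 1 array a side and has no replicate check. The lowest high array was exposed animal 3 for 23 of the 69 genes, exposed animal 4 for 21, sham animal 3 for 21, sham animal 2 for 3 and exposed animal 6 for 1.

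**Figure D3:**
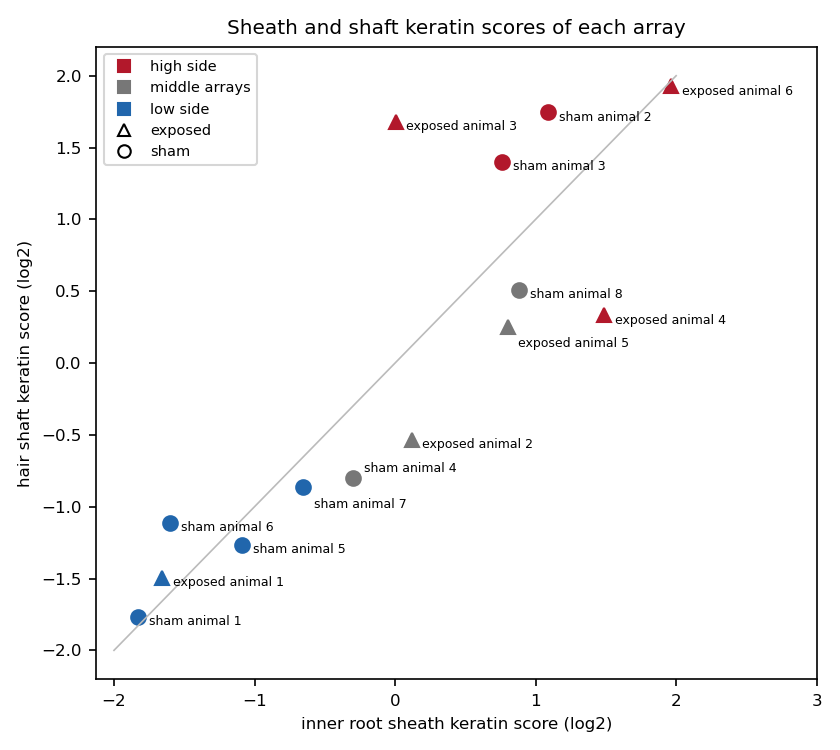
Inner root sheath keratin score (horizontal axis, log2) against hair shaft keratin score (vertical axis, log2) of each of the 14 arrays, with the line of equal scores in grey; red, grey and blue are high, middle and low arrays, triangles exposed and circles sham. Most arrays lie near the line, and exposed animal 3 (0.0054 and 1.68) and exposed animal 4 (1.49 and 0.33) lie farthest from it on opposite sides.

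The number of genes lower in hair-keratin-high skin depended on the arrays and settings used. It was 11 over all 10 arrays, 108 without sham animals 5 and 7, 29 without sham animal 5, 49 with no filter on dim probes, 47 with slide as a block and 1 with normexp. Of the 11, 4 had a symbol, and all 4 are given here. Sftpc, known as a surfactant protein of lung, was -0.93 ± 0.53 against 0.34 ± 0.29 (SD, n = 5 each), 2.41-fold lower in the high side. Sftpc values were -1.40 (exposed animal 4), -1.39, -1.11, -0.52 and -0.22 (sham animal 3) in the high arrays and -0.080 (sham animal 1), 0.30, 0.30, 0.52 and 0.68 (sham animal 7) in the low arrays. The middle arrays did not follow the score, since exposed animal 2 (0.53) lay with the low arrays and sham animal 4 (-1.48) below every high array. Mt3, a metallothionein, differed by -1.11. Mt3 values were -2.94 (sham animal 2), -2.85, -2.48, -2.05 and -1.81 (exposed animal 3) in the high arrays and -1.70 (sham animal 5), -1.50, -1.36, -1.19 and -0.81 (exposed animal 1) in the low arrays. Sham animal 4, at -0.42, was above all of them. Cep112 (-1.12) and Igfals (-1.05) were dim, with 3 and 1 of 5 high arrays well above background. With normexp background correction, which shrinks dim differences, they differed by -0.48 and -0.41.

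Melanocytes work in the bulb beside the matrix. Of 11 melanocyte genes measured, 1 was separated upward, Ednrb, and without sham animal 6 the count was 0 of 11. Over all genes other than keratins, 0.372% were separated upward and 0.0592% downward. Ednrb values were -3.06 (sham animal 3), -3.06, -2.56, -2.54 and -2.45 (exposed animal 6) in the high arrays and -5.16 (sham animal 6), -3.99, -3.85, -3.70 and -3.34 (sham animal 7) in the low arrays. The melanin-synthesis enzymes Tyr and Tyrp1 differed by -0.99 and -0.92 in the opposite direction, with overlap and with 3 and 4 of 5 high arrays well above background. Tyrp1 was lowest in exposed animal 3 at -6.10. Within slide 4 both were higher in the high array, by 0.34 and 0.25.

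Stem cell and dermal papilla genes lay close to the median of all genes. Separation was rare over all genes other than keratins (0.372% upward, 0.0592% downward), so counts of 0 here and below say little. Bulge genes had a median of 0.15 with 0 of 10 separated, and dermal papilla genes 0.16 with 1 of 22, which was Lef1. Cell cycle genes had a median of -0.028 with 0 of 39 separated, and sebaceous gland genes, the gland that empties into the follicle, -0.0084 with 0 of 26. Basal epidermal genes had a median of -0.014 (0 of 9) and epidermal differentiation genes -0.078 (0 of 26), so the interfollicular epidermis differed little between the sides by these lists. White adipocyte genes had a median of 0.24 with 18 of 24 above 0 and 0 separated. Fabp4 and Cidec, of fat storage, differed by 0.83 and 0.90, and the Cidec difference included -5.43 in the dim sham animal 6.

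Among stress keratins and alarmins, 0 of 9 were separated, and 1 of 9 without exposed animal 6. Il36a, an epidermal cytokine, differed by 2.21 with overlap. Krt16, induced in wounded skin, was -1.81 ± 0.67 against -2.79 ± 1.77 (SD, n = 5 each). Without sham animal 6 the list median was 0.091 in place of 0.33.

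**Figure D4:**
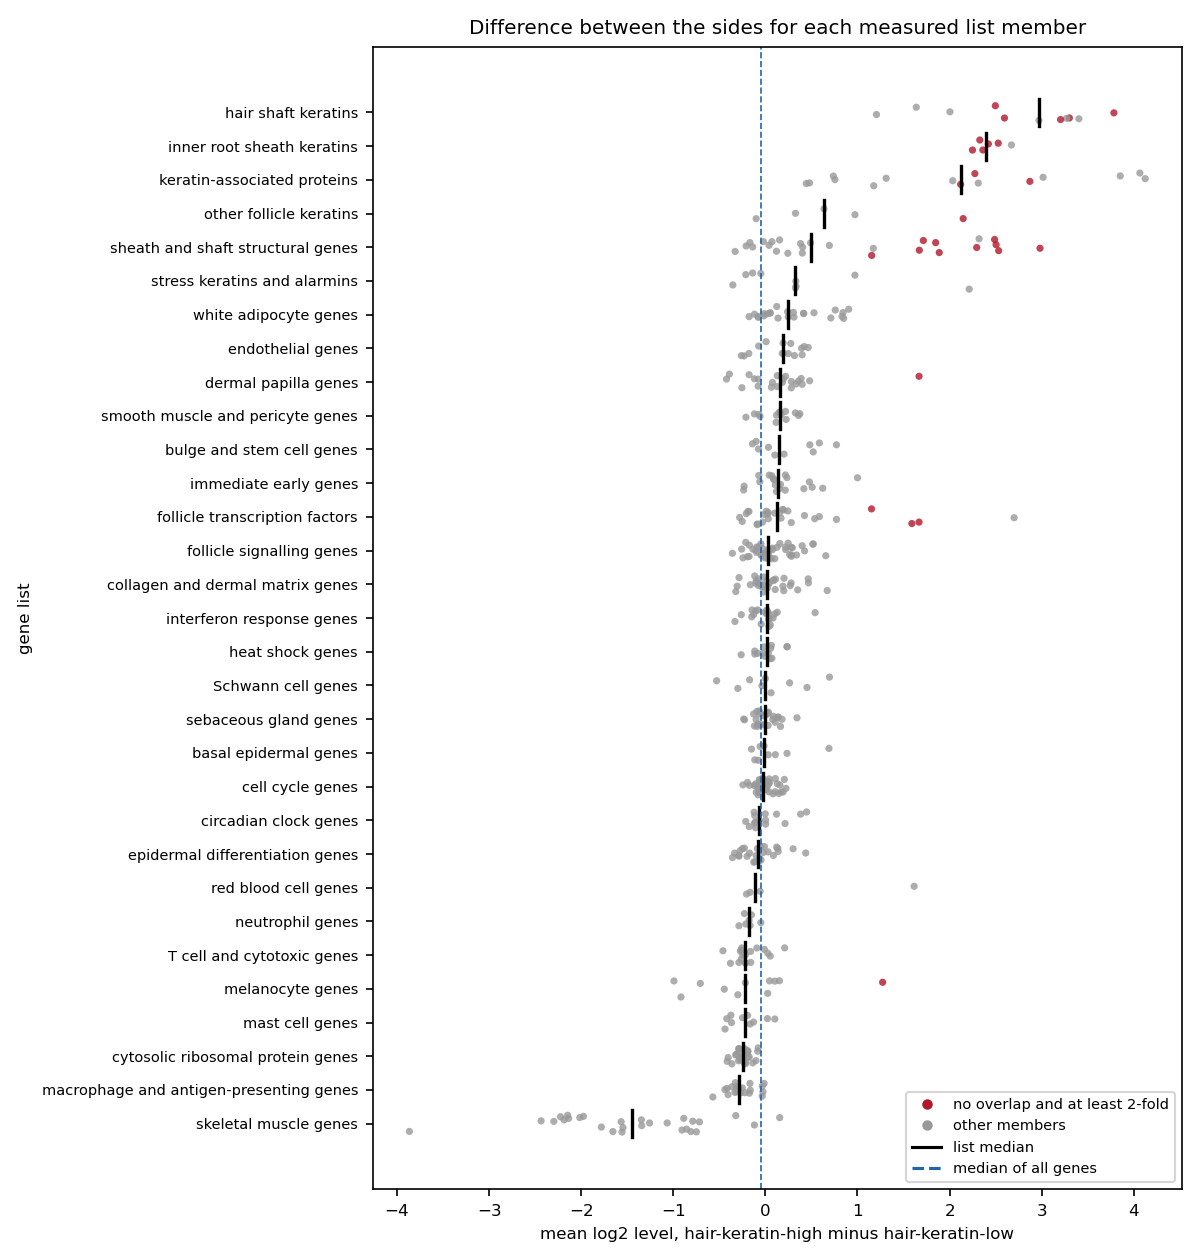
Difference in mean log2 level, hair-keratin-high minus hair-keratin-low, for every measured member of 31 gene lists (rows, ordered by median); red points did not overlap between the sides and differed at least 2-fold, black bars are list medians and the dashed line is the median of all 18611 genes (-0.045). Red points gather in the keratin, keratin-associated and structural rows, and the skeletal muscle row lies to the left with 0 red points.

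Markers of other tissues also differed between the sides. Of 42 skeletal muscle genes listed, 28 were measured, 27 were lower in the high side and 0 were separated, with a median of -1.45. Without exposed animal 6, 1 of 28 was separated downward. The summed linear level of the list ran from 12.9 to 27.7 in the high arrays and from 14.2 to 101 in the low arrays, relative to each array's 75th percentile. The muscle score was -1.95 in sham animal 2, -1.88 in sham animal 3, -1.48 in exposed animal 4, -0.27 in exposed animal 3 and 0.87 in exposed animal 6. In the low side it was -0.93 in sham animal 1, -0.76 in exposed animal 1, -0.69 in sham animal 6, 2.07 in sham animal 7 and 2.80 in sham animal 5. Ckm, the muscle creatine kinase, was well above background on all 14 arrays and lay between -4.59 and 0.096 in the high and between -2.34 and 2.60 in the low arrays. The list median was -0.73 without sham animal 5, -0.90 without sham animal 7, -0.79 within slide 1, -4.38 within slide 3 and 0.13 within slide 4. Without both sham animals 5 and 7, 95 genes other than keratins were higher and 108 lower. Genes free of overlap in all arrays remain so when arrays are left out, so only the 2-fold limit could remove any of the 69, and it removed 2.

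The 21 measured macrophage and antigen-presenting genes were all below 0, as were 11515 of all 18611 genes, with a median of -0.29, and 19 of 21 were below 0 after quantile normalization. Leaving out exposed animal 3 moved that median to -0.15, and leaving out exposed animal 1 moved it to -0.17. Within slide 4 their median was 0.13. The 32 ribosomal protein genes were also all below 0, with a median of -0.24, but the median was -0.077 without sham animal 6, and 18 of 32 were above 0 after quantile normalization (median 0.0082). Their score was 0.89 in the dim sham animal 6 and at most 0.26 in every other array. Arrays of lower signal were found on both sides, since the 75th percentile ran from 1075 to 1967 in the high side and from 804.5 to 1668 in the low side. The part of muscle, immune and ribosomal levels and of array signal in the differences of single follicle genes was not tested.

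**Figure D5:**
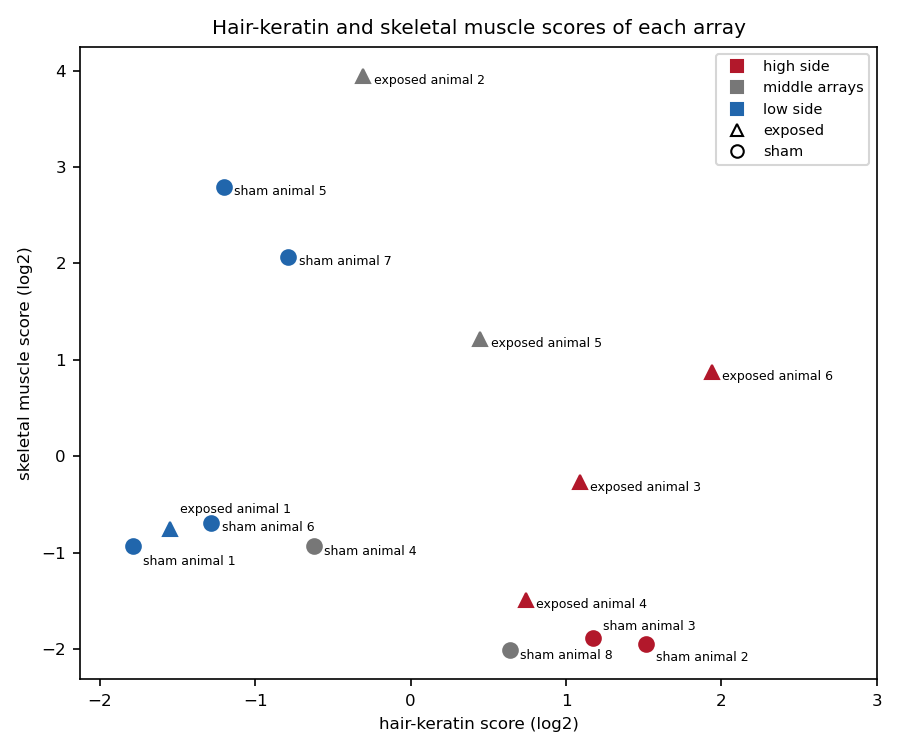
Hair-keratin score (horizontal axis, log2) against skeletal muscle score (vertical axis, log2) of each of the 14 arrays; red, grey and blue are high, middle and low arrays, triangles exposed and circles sham. Sham animals 5 (2.80) and 7 (2.07) stand above the other low arrays, and exposed animal 6 has the highest hair-keratin score (1.94) with a muscle score of 0.87.

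The treatment labels allow a test that the sides do not. Exposed minus sham was fitted with limma over 14 arrays and 18611 genes. After Benjamini-Hochberg adjustment 0 genes had an adjusted p under 0.05 (0%), the smallest adjusted p was 0.99959, and 636 genes (3.42%) had an unadjusted p under 0.05. Of the 69 genes separated between the sides, 0 passed the adjusted threshold. At an unadjusted p under 0.05 there were 11, 68 of the 69 lay above 0, and their median was 0.57 log2, beside -0.019 over all 18611 genes. The high side holds 3 of the 6 exposed animals and the low side 1, so this contrast shares arrays with the choice of the sides and nothing was read from those counts. Vsig8 differed by 1.27 (95% interval 0.23 to 2.32), S100a3 by 1.23 (0.076 to 2.38) and Padi3 by 0.78 (-0.46 to 2.02) in the limma fit. The intervals are not adjusted for the number of genes, and the limma adjusted p of each of these genes was 0.99959. Gprc5d differed by 0.55 (95% interval -1.10 to 2.19), Lef1 by 0.82 (-0.050 to 1.70) and Krt85 by 0.58 (-1.41 to 2.58). The intervals are wide enough to hold differences of 2-fold and more in either direction for Gprc5d and Krt85.

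Both treatments were present on both sides, and the follicle difference could be taken among sham animals alone. With 2 high and 4 low sham arrays, 138 genes were higher and 115 lower. With fewer arrays more genes of every kind are free of overlap. Because these arrays are among those that chose the 69, the 69 could not overlap here, and 63 of them also kept the 2-fold limit. The median difference of inner root sheath keratins was 2.18 and of shaft keratins 3.28 in sham animals alone.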

How the data were processed

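Total RNA of 14 skin biopsies, 1 per animal, was labelled with Cy3 and hybridised to 1-colour Agilent arrays. The deposited scanner files hold spot intensity, background-subtracted and spatially detrended by Agilent Feature Extraction 10.7.3.1 per the file headers, and not scaled between arrays. A table of log2 values for 15168 probes was also deposited, with every probe's median over the arrays at 0 and column medians between -0.0086 and 0.012; its normalization is not stated. Its direction and log base were settled against quantile-normalized scanner values (column correlations of 0.999977 or more).

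Control spots and outlier spots were left out. The processed signal was divided by each array's 75th percentile and put on the log2 scale, and spots of 1 probe were averaged. Probes well above background on at least 6 arrays were kept, and the brightest kept probe stood for a gene. Of 30367 probes, 17998 (59.3%) gained a symbol through their accession from a RefSeq table of assembly GRCr8. The array design names build rn4, so no array coordinates are given. Between 69.4% and 76.8% of spots were well above background, and 0 were saturated. The number of arrays limits the precision.

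The members and the 31 gene lists were chosen with earlier results of these data known. High and low arrays were compared by description only, with a gene called separated when the 5 and 5 arrays did not overlap and means were at least 2-fold apart. For a gene not well above background on any array of a side, an at-least fold was set against that side's floor, per array the higher of the lowest signal among probes well above background and the probe's own. For exposed against sham, limma 3.58.1 (R 4.3.3; lmFit, eBayes, two-sided) was fitted to 18611 genes with Benjamini-Hochberg adjustment, and the fit was tested on simulated data. Cage-mates are not identified, so the fit takes animals as independent. Named genes were the 30 separated genes other than keratins with a symbol and the largest difference upward, up to 20 downward, the 4 members of each list with the largest difference, and Krt25, Krt27, Krt31 and Krt85. Other list members are given as examples. Alternatives covered scaling, background correction, the authors' values, filters, probes, slides, treatment, fold and each array in turn.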

Additional observations from a re-analysis of the deposited data

Results flagged for a closer look

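List scores and named genes were searched within each side, which gave 130 series, and 9 of the 130 had 1 array far from the other 4. Chance gives about 5%, so the number found is near that share. In the high side the dermal papilla score was 0.22 in sham animal 2 (others 0.044 to 0.063), the white adipocyte score 0.35 in exposed animal 3 (others 0.048 to 0.13) and the immediate early score -0.16 in exposed animal 3 (others 0.10 to 0.21). Cep112 lay at -7.40 in exposed animal 3, against -6.55 to -6.21 in the other high arrays. In the low side the macrophage score was 0.50 in exposed animal 1 (others -0.013 to 0.11). The endothelial score was -0.75 in sham animal 6 (others -0.11 to 0.11), as was the Schwann cell score at -0.52 (others -0.00097 to 0.11), and sham animal 6 is the dim array. Krtap19-5 lay at -5.12 in exposed animal 1, against -2.40 to -1.68 in the other low arrays, and Bambi at -0.88 in sham animal 7, against -1.35 to -1.23.

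For 2 lists, high minus low ran in opposite directions in exposed and sham animals, and the difference between the treatments was not tested. The dermal papilla score differed by -0.0071 among exposed animals (3 high, 1 low) and by 0.25 among sham animals (2 high, 4 low). The smooth muscle and pericyte score differed by -0.52 among exposed and 0.57 among sham animals.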

How the results depend on the processing

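No paired analysis was possible because the labels carry no replicate numbers and do not say which animals shared a cage. The number of genes higher in the high side was 39 with normexp background correction, 45 in the authors' values, 128 with slide as a block, 228, 345 and 405 within slides 1, 3 and 4, 138 in sham arrays only, 113 without the array of each side nearest the other, 39 at 4-fold, and 70 to 105 with 1 array left out, where 105 is without sham animal 6. The number of lower genes was 5 with quantile normalization, 1 with normexp, 4 in the authors' values, 5 with probes well above background on all 14 arrays, 49 with no filter, 47 with slide as a block, 739, 219 and 517 within slides 1, 3 and 4, 115 in sham arrays only, 108 without sham animals 5 and 7, 54 at 1.5-fold, 1 at 4-fold, and 12 to 29 with 1 array left out (29 without sham animal 5, 27 without exposed animal 3, 22 without exposed animal 6, 19 without exposed animal 1, 17 without sham animal 7). Fewer arrays leave less room for overlap, by construction. Of the 69 higher genes, 67 were called with quantile normalization, 38 with normexp, and 43 of the 44 measured in the authors' values, and 0 turned below 0 under these 3. Leaving out arrays cannot turn a gene that does not overlap. Other causes were not tested.

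Lists are given by the median difference of their members, which moved by less than the spread between arrays in 722 list alternatives and by more in 53. Within slide 1 the median was 3.07 for inner root sheath keratins, 3.91 for hair shaft keratins, 0.094 for other follicle keratins, 0.87 for structural, 0.0014 for white adipocyte, -0.31 for epidermal differentiation, -0.11 for stress keratins, 0.34 for T cell, -0.019 for macrophage, -0.59 for mast cell and -0.50 for neutrophil. Within slide 3 the median was 0.030 for white adipocyte, -4.38 for skeletal muscle, 0.071 for stress keratins, 0.096 for mast cell and 0.13 for circadian clock. Within slide 4 the median was 3.22 for inner root sheath keratins, 0.017 for other follicle keratins, 0.71 for structural, 0.070 for transcription factors, -0.036 for dermal papilla, 0.24 for cell cycle, 0.10 for melanocyte, -0.14 for sebaceous gland, -0.032 for stress keratins, 0.13 for macrophage, -0.73 for red blood cell, 0.23 for immediate early and 0.20 for heat shock. In sham arrays only the median was 0.76 for structural, 0.31 for dermal papilla, 0.20 for basal epidermal, 0.39 for collagen and 0.55 for smooth muscle. With normexp the median was 0.36 for structural, 0.047 for transcription factors and 0.062 for dermal papilla. In the authors' values the median was 0.37 for bulge, 0.096 for sebaceous gland and 0.16 for stress keratins. With slide as a block the median was 0.26 for dermal papilla. With probes well above background on all 14 arrays the median was 0.064 for melanocyte and 0.14 for stress keratins. With no filter the median was 0.14 for stress keratins. With quantile normalization the median was 0.097 for sebaceous gland. With all probes of a gene averaged the median was 0.080 for transcription factors. Without sham animals 5 and 7 the median was 0.19 for transcription factors and 0.19 for basal epidermal. With 1 array left out it ran from 0.077 to 0.17 for transcription factors, 0.063 to 0.25 for dermal papilla and 0.091 to 0.36 for stress keratins. Exposed against sham gave 0 adjusted calls in all 22 alternatives, and 636 unadjusted calls became 1549 without sham animal 6 and 989 without exposed animal 3. Alternatives without sham animals 5 and 7, or without the nearest arrays, were chosen after seeing the data. Dim genes are limited by signal over background.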

Other observations

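Several lists outside the follicle account held single genes whose difference was larger than that of their list. The anion exchanger of red cells, Slc4a1, differed by 1.62 between the sides, while the globin genes Hbb-b1 and Hbb differed by -0.20 and -0.17 and the red cell heme enzyme Alas2 by -0.06. Slc4a1 overlapped, with -6.12 in exposed animal 3 and -5.96 in sham animal 6. S100b, a calcium-binding protein of Schwann cells, differed by 0.70, while Mag, of myelin, differed by -0.53 and Sox10 by -0.30. Among immediate early genes, Fos differed by 1.00 with a wide spread in both sides, from -3.23 to -0.28 in the high arrays and from -3.52 to -1.59 in the low arrays.

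Endothelial genes had a median of 0.20 with 11 of 15 above 0, and without sham animal 6 the median was 0.017. Collagen and dermal matrix genes had a median of 0.022, heat shock genes 0.016, interferon response genes 0.016 and circadian clock genes -0.069, each with 0 members separated between the sides. T cell genes had a median of -0.22 with 0 of 18 separated, mast cell genes -0.22 with 0 of 10, and neutrophil genes -0.18 with 0 of 7. Smooth muscle and pericyte genes had a median of 0.15 (0.0042 without sham animal 6) and Schwann cell genes -0.00038, also with 0 members separated. The 4 red blood cell genes had a median of -0.11 with 0 separated, and 1 was separated without exposed animal 3 or without sham animal 6, where the median was -0.19 and 0.17.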
